A study of Homo sapiens with 6 samples.

Results

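The genes examined here encode proteins of neutrophil granules (MPO, ELANE, PRTN3, AZU1, CTSG, LYZ and LTF) and calcium-binding S100 proteins of neutrophils and monocytes (S100A8, S100A9 and S100A12). They were chosen by name, with earlier results of these data known, as 10 of the 20033 protein-coding genes on the autosomes and sex chromosomes in GENCODE version 44. For each gene, all V5-GSE1 peaks that overlapped the gene span extended by 50 kb on each side were collected. Neighbouring genes share peaks, because the windows of AZU1, PRTN3 and ELANE on chromosome 19 and those of S100A9, S100A12 and S100A8 on chromosome 1 overlap, so that the 10 genes form 6 separate loci.

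The peaks mark DNA recovered with an antibody against the V5 tag of GSE1 and then sequenced (ChIP-seq, chromatin immunoprecipitation and sequencing) from NB4, a human acute promyelocytic leukaemia line. Cells transduced with the lentiviral pLEX_307 vector carrying GSE1 transcript variant 2 were kept for 24 h in DMSO or in 2 µM MC2580, which inhibits the demethylase LSD1. Cells with the empty vector (EV) gave a control ChIP, and each of the 3 ChIP libraries had an input, 6 libraries in all with 1 per group. The tagged protein was an exogenous form expressed in a transduced population. The EV control shared the vector, and no drug or vehicle is listed for it. Peak lists hold no expression values by which the cell type could be checked.

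Each peak has a score, deposited by the authors, which is −10 times the log10 of the p-value given by their peak caller, so that the calling threshold lies at 50. Replicate error could not be estimated from 1 library per condition, so the conditions were compared without a test. A peak found in only 1 list is therefore a difference between these libraries, scores depend on sequencing depth, which was unknown, and both lists share the EV control.

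As background, granule proteins are made in waves during neutrophil development. Azurophil granule proteins, which include the peroxidase MPO, the serine proteases ELANE, PRTN3 and CTSG, their inactive relative AZU1 and the bacteriolytic enzyme LYZ, are made at the promyelocyte stage at which NB4 cells are arrested. The iron-binding LTF belongs to the specific granules of later stages, while S100A8 and S100A9 form the heterodimer calprotectin and, like S100A12, are abundant in the cytoplasm of mature myeloid cells. LSD1 acts in corepressor complexes that remove methyl groups from histone H3, and GSE1 is found in LSD1-containing complexes.

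The DMSO list had 8 distinct peaks at these loci and the MC2580 list had 4. MPO and LYZ carried the highest DMSO scores, 817 at the MPO start site and 510.3 upstream of LYZ. After MC2580, peaks were listed at MPO and AZU1 only, and the peaks at LYZ and S100A12 had no counterpart. The whole lists also differed in size, with 21401 DMSO and 13233 MC2580 peaks. Of all DMSO peaks 33.6% overlapped an MC2580 peak, against 3 of the 8 at these loci, so lack of a counterpart was common throughout the list. CTSG and LTF had no peak within 50 kb in either list.

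The sequences below are the central 300 bases of selected peaks at these loci, trimmed where an annotated exon begins. Among those not printed are the windows of the DMSO peak over the MPO start site, which held none of the words, and of the LYZ start site peak. The printed sequences are given 5′ to 3′ on the forward strand of hg38, and capitals mark the consensus words that were searched for. The first is S100A12 (chr1:153375622-153375856, 235 bases upstream of the start site on the gene's reverse strand), the next pair lie 9588 and 6299 bp upstream of LYZ, measured from the peak edge (chr12:69338109-69338408 and chr12:69341416-69341715), the next pair are the centre of the MC2580 peak whose edge is 417 bp upstream of the MPO start site (chr17:58281726-58282025) and of the DMSO peak 3538 bp upstream of it (chr17:58284787-58285086), and the last is the AZU1 upstream peak in DMSO (chr19:823671-823970).
S100A12: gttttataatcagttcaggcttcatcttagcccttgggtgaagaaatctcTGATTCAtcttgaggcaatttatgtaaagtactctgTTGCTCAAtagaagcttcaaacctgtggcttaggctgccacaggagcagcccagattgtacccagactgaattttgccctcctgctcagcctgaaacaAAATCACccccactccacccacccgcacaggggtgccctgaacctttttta
LYZ upstream, far: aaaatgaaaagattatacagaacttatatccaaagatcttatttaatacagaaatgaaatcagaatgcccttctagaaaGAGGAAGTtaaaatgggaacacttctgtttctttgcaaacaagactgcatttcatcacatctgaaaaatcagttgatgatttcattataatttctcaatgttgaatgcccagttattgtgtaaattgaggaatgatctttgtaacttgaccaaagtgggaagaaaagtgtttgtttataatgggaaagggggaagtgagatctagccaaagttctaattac
LYZ upstream, near: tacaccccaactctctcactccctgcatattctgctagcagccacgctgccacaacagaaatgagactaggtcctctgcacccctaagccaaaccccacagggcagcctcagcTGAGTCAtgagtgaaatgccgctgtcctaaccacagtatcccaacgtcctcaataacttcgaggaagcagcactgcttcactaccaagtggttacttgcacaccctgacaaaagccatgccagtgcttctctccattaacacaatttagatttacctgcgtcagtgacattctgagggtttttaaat
MPO upstream, near: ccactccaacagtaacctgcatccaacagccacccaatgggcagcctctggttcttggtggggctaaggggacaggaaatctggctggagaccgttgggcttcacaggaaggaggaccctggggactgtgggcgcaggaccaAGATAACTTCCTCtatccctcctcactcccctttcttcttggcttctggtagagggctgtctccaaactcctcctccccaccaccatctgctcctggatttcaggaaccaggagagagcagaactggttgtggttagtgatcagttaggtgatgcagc
MPO upstream, far: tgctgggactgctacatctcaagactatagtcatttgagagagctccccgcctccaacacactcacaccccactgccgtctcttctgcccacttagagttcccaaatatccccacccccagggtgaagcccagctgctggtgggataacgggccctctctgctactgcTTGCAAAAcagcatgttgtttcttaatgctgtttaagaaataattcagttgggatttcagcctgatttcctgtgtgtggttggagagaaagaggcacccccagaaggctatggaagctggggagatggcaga
AZU1 upstream: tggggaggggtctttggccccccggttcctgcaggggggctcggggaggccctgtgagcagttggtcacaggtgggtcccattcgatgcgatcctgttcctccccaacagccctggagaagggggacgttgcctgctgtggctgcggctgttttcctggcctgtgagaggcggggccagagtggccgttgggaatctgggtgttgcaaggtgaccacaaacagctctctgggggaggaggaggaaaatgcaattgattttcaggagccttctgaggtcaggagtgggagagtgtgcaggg

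MPO encodes myeloperoxidase, the most abundant azurophil granule protein, which makes hypochlorous acid. The gene lies on the reverse strand at chr17:58269855-58280935. In DMSO its 5′ end was covered by a peak of 2054 bp at chr17:58280536-58282589 with a score of 817, which is higher than 96.9% of all DMSO peaks. In MC2580 the list had a peak of 1048 bp at chr17:58281352-58282399 with a score of 146, which lay inside the DMSO peak and covered 51.0% of it. The MC2580 peak no longer reached the 5′ end but stopped 417 bp upstream of it. The ratio of the scores was 0.179, and 4.51% of all 5449 pairs of singly overlapping peaks had a lower ratio, the median over all pairs being 0.638. No listed score lies below the calling threshold of 50, so a ratio this low can arise only where the DMSO score is high. The low rank of this pair therefore depends in part on its high DMSO score.

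A further site lay 3538 bp upstream of MPO in DMSO and 3578 bp upstream in MC2580. Its score was 187 in DMSO (chr17:58284473-58285400) and 68.1 in MC2580 (chr17:58284513-58285463), a ratio of 0.363, and 95.7% of the DMSO peak was covered. Both MPO sites had lower scores in the MC2580 list, where the upstream site was nearly the same interval and the peak at the 5′ end was narrower.

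Of the remaining MPO peaks, a weak MC2580 peak was found inside the gene, 1506 bp downstream of the 5′ end (chr17:58278665-58279429, score 52.9), over the start site of another annotated MPO transcript. Its score was close to the calling threshold, and the nearest DMSO peak was 1107 bp away. A DMSO peak with a score of 66.7 at chr17:58232657-58233387 overlapped an exon of LPO, the neighbouring lactoperoxidase gene, 47548 bp from the MPO 5′ end, and no MC2580 peak overlapped it.

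LYZ encodes lysozyme, which degrades bacterial cell walls. The gene lies on the forward strand at chr12:69348381-69354234 and had 3 DMSO peaks, all upstream or over the start site. The highest score, 510.3, was at chr12:69337724-69338793, 9588 bp from the nearest LYZ start site, and exceeded 94.3% of the DMSO list. This peak was nearer, at 5842 bp, to the start site of a long non-coding RNA gene without a symbol in GENCODE, so that its assignment to LYZ rests on the window alone. A peak at chr12:69341049-69342082 had a score of 122, and the peak over the start site itself (chr12:69347876-69348674) had the lowest score of the locus, 58.5. Within the LYZ window the distal site thus had the highest score, whereas at MPO the strongest site was at the promoter.

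No LYZ peak was present in the MC2580 list, and the nearest MC2580 peak was 218900 bp from the LYZ start sites, at FRS2 (score 53.2). Chromosome 12 as a whole had 3928 DMSO and 2902 MC2580 peaks, a ratio of 0.739, and this total was not split by peak density. The 1 Mb bin of the LYZ start site held 5 distinct peaks. Outside bins with at least 40 distinct peaks, 44.4% of protein-coding genes had a DMSO peak within 50 kb and 22.8% an MC2580 peak.

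**Figure D1:**
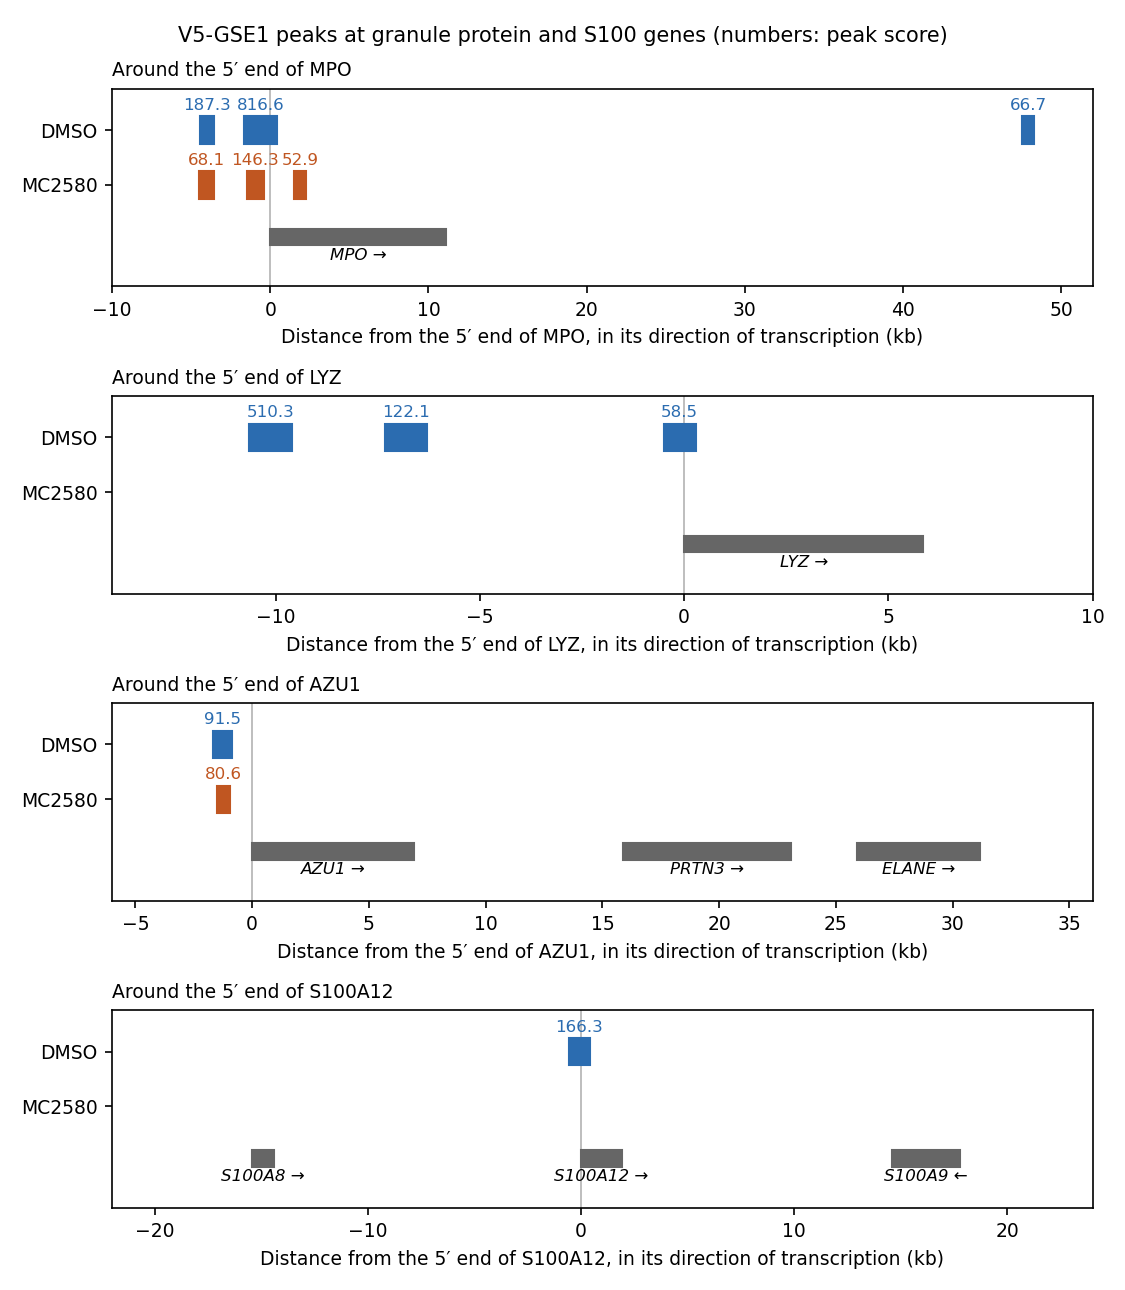
Positions of V5-GSE1 peaks around MPO, LYZ, AZU1 and S100A12. The horizontal axis is the distance in kb from the 5′ end of the named gene in its direction of transcription, coloured boxes are peaks of the DMSO list (upper row) and MC2580 list (lower row) with their scores, and grey boxes are the genes with arrows for their direction relative to the named gene. MPO and AZU1 have boxes in both rows, whereas LYZ and S100A12 have them in the DMSO row only.

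AZU1, PRTN3 and ELANE encode azurocidin, proteinase 3 and neutrophil elastase, related proteins whose genes stand in tandem on the forward strand at chr19:825097-856247. In both lists the cluster had a single peak, upstream of AZU1. The DMSO peak at chr19:823405-824236 had a score of 91.5, 861 bp from the AZU1 start site, and the MC2580 peak at chr19:823588-824143 had a score of 80.6, 954 bp from it. The MC2580 peak lay wholly inside the DMSO peak. The score ratio of 0.881 was the highest among the 3 sites found in both lists, with 69.5% of all pairs below it. The DMSO score was also the lowest of these 3 sites. Because no listed score lies below the calling threshold, the ratio could not fall as far here as at the MPO sites. The order of the 3 ratios therefore depends in part on the DMSO scores. Whether binding was better retained at AZU1 was not tested.

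The start sites of PRTN3 and ELANE were not covered. The AZU1 peak was 16763 bp from PRTN3 and 26778 bp from ELANE in DMSO, and it is the only peak that places these genes among those with a peak. Chromosome 19 differed from the other chromosomes of these loci in having as many MC2580 as DMSO peaks, 1449 against 1429. These totals were not split by peak density, and the 1 Mb bin of the AZU1, PRTN3 and ELANE start sites held only 5 distinct peaks. Whether the chromosome total bears on this cluster was not tested.

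S100A9, S100A12 and S100A8 lie within chr1:153357854-153391073. Their only DMSO peak covered the S100A12 start site (chr1:153375206-153376206, score 166, higher than 76.5% of the list). It was 14770 bp from the nearest S100A8 start site and 17352 bp from that of S100A9, so that neither subunit gene of calprotectin had a peak at its own promoter. No MC2580 peak was listed within 50 kb of these genes, and the nearest one to S100A12, at TPM3 (score 60.7), was 781898 bp away.

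CTSG, which encodes cathepsin G, and LTF, which encodes lactoferrin, had no peak in their windows. The nearest DMSO peak was 83404 bp from the CTSG start site and the nearest MC2580 peak was 69766 bp from it. For LTF the distances were 143645 and 143722 bp, to a pair of peaks at nearly the same position with scores of 285 in DMSO and 91.1 in MC2580.

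**Figure D2:**
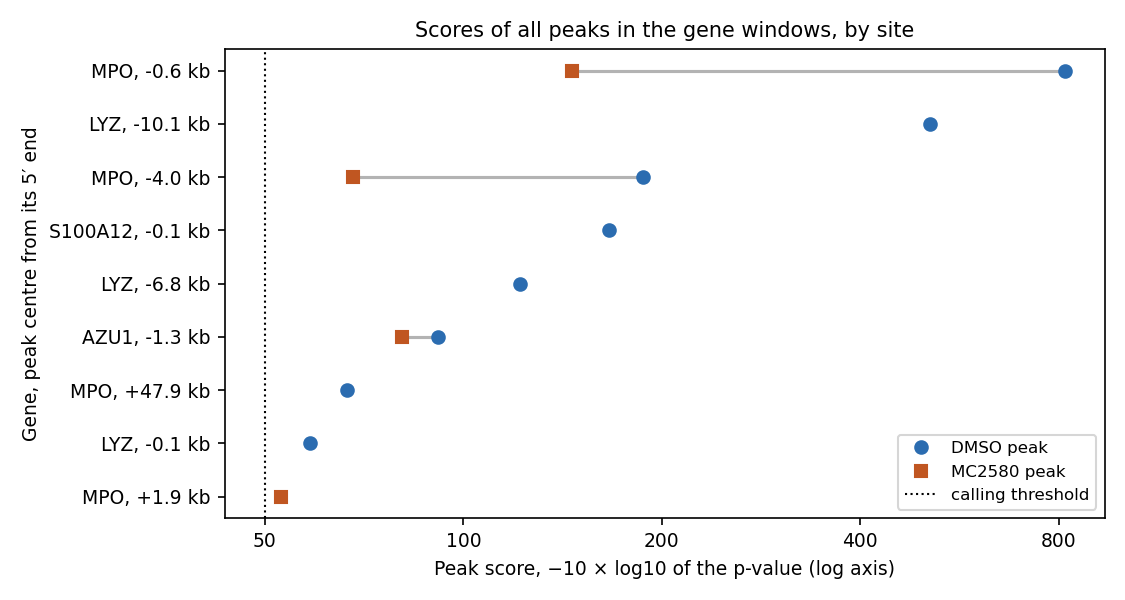
Score of every peak in the gene windows, on a log axis, with 1 line per site labelled by gene and by the distance in kb from its 5′ end to the peak centre. Blue circles are DMSO peaks, orange squares MC2580 peaks, grey lines join overlapping peaks, and the dotted line marks the calling threshold at 50. At the 3 sites with both symbols the MC2580 score is the lower, at 146 against 817, 68.1 against 187 and 80.6 against 91.5.

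Among the members, 8 of 10 had a DMSO peak within 50 kb, against 47.9% of all protein-coding genes, and 4 of 10 had an MC2580 peak, against 27.3%. A DMSO peak without any MC2580 peak in the window was found for 4 of 10 (LYZ, S100A8, S100A9 and S100A12), against 22.8%. Within 3 kb of an annotated start site, 4 of 10 had a DMSO peak (MPO, LYZ, AZU1 and S100A12), against 16.1%, and 2 of 10 had an MC2580 peak (MPO and AZU1), against 7.87%. Counted by locus, 4 of 6 had a DMSO peak and 2 of 6 an MC2580 peak. The members had a median span of 5544 bp against 27471 bp for all protein-coding genes, and LTF, at 49590 bp, was the only member above the latter. The counts depended on the reach of the window and on weak peaks: with 10 kb on each side 4 members had a DMSO peak and 2 an MC2580 peak, and at a score of at least 100 the numbers were 5 and 1. Shares over all protein-coding genes were not computed by locus or at these settings, so the percentages above do not apply to those counts.

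No member lay in one of the 1 Mb bins that hold at least 40 distinct peaks, and the bins of their start sites held 5 to 11. Outside such bins the share of protein-coding genes with a peak within 3 kb of a start site was 12.4% in DMSO and 4.54% in MC2580, and within 50 kb it was 44.4% and 22.8%.

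The 8 DMSO peaks had a median score of 144 (range 58.5 to 817), against 91.1 for the whole list of 21401 peaks, and the 4 MC2580 peaks had a median of 74.3 (52.9 to 146), against 78.1 for 13233 peaks. Of the DMSO peaks, 3 of 8 overlapped an MC2580 peak by at least 1 bp, or 37.5% (Wilson 95% interval 13.7 to 69.4), and the share in the whole list was 33.6%. In the other direction 3 of 4 overlapped, or 75% (30.1 to 95.4), against 58.0%. These intervals cover counting error only, and they span the values of the whole lists.

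**Figure D3:**
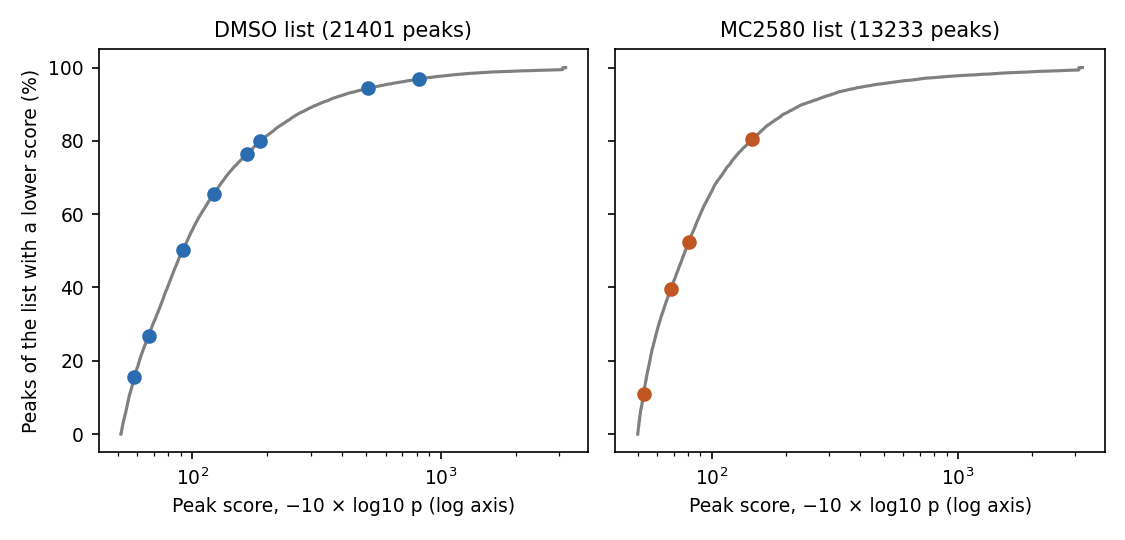
Peaks of the gene windows within the score distribution of each list. The horizontal axis is the score on a log axis, the vertical axis the percentage of peaks in the list with a lower score, the grey line all peaks of the list and the points the 8 DMSO and 4 MC2580 peaks. The DMSO points reach 96.9% (MPO) and 94.3% (LYZ), and the highest MC2580 point, the peak 417 bp upstream of the MPO start site, lies at 80.5%.

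The central 300 bp of each peak were searched on both strands for consensus words of factors active in myeloid cells. At LYZ, the distal peak held the PU.1 word GAGGAAGT, which 4.0% of all DMSO windows hold, the nearer upstream peak held the AP-1 word TGANTCA (13.1%) and the start site peak held the RUNX word TGTGGTTT (6.07%). The S100A12 window held an AP-1 word, a CEBP word of the form TTGCNNAA (19.1%) and the GFI1 word AAATCAC (5.5%). At MPO the central window of the DMSO peak over the start site held none of the words, while that of the MC2580 peak within it, which lies further upstream, held a PU.1 word (2.62% of MC2580 windows) that shared 1 base with a GATA word, AGATAA (15.4%). The MPO site 3538 bp upstream held a CEBP word in the windows of both lists (19.1% of DMSO and 15.4% of MC2580 windows), and the LPO exon peak held an AP-1 word. The AZU1 windows and the MPO intragenic window held none.

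Over all 8 DMSO windows the AP-1 word occurred in 3 and the CEBP word in 2, against 13.1% and 19.1% of all DMSO windows. The AP-1 word allowed any base in its middle, and the matches were TGATTCA at S100A12, TGAGTCA at LYZ and TGAATCA at the LPO exon. Of these only TGAGTCA has the C or G of the usual AP-1 site. The PU.1, RUNX and GFI1 words occurred in 1 each (4.0%, 6.07% and 5.5% of all DMSO windows) and the GATA word in 0 (15.5%). The GC content of the DMSO windows ranged from 32.0% at the distal LYZ peak to 62.0% at AZU1, around a median of 48.7% over the whole list, and the MC2580 windows reached 63.7% at the MPO intragenic peak, with a list median of 48.0%. A match is a description of the letters and not evidence that the factor binds.

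Other granule genes were then described, as lists that include the members and were likewise chosen with earlier results of these data known. The azurophil list held 20 genes, for azurophil granule proteins and for related proteins such as RNASE2, so that it is broader than the azurophil granule. Of these 20 genes, a DMSO peak lay within 3 kb of a start site for 8 (40%) and an MC2580 peak for 4 (20%), against 16.1% and 7.87% of all protein-coding genes. BPI, which encodes a bactericidal protein that binds lipopolysaccharide, had the highest score of this list, 1400.5 over its start site in DMSO (chr20:38303215-38305437) and 455 in MC2580 (chr20:38303500-38304672). CST7, which encodes the protease inhibitor cystatin F, had scores of 284 and 178 at its start site. CTSC, whose product activates granule serine proteases, had a DMSO peak of 76.5 at its start site, and so did RNASE2 (62.1) and the serine protease gene PRSS57 (67.3), none of them overlapped by an MC2580 peak. Only uniquely matching reads were kept by the authors, so that near-identical genes such as DEFA1, DEFA1B and DEFA3, which had no peak in their windows, are uncertain.

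Of 20 genes for proteins of specific, gelatinase and other granules, a DMSO peak lay that near a start site for 8 (40%) and an MC2580 peak for 3 (15%), beside the same 16.1% and 7.87%. MMP9, the gelatinase B gene, had DMSO peaks with scores of 491 and 335, overlapped by MC2580 peaks with scores of 68.0 and 129.8. CYBA, which encodes a subunit of the NADPH oxidase, had 265 in DMSO and 75.7 in MC2580. Start site peaks in DMSO alone were found at CHI3L1 (289), HP (197), SLPI (158) and the cathelicidin gene CAMP (114), and MMP25 had a DMSO peak 1407 bp from a start site (64.6). PGLYRP1, a peptidoglycan recognition protein gene, had peaks in both lists (251 and 200.1 in DMSO and up to 262 in MC2580) but lies in a 1 Mb bin dense with peaks.

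In the S100 family, 4 of 19 genes had such a DMSO peak (21.1%, against 16.1% of all protein-coding genes) and 0 had an MC2580 peak (against 7.87%). Beside S100A12 these were S100A11, S100A5 (score 152 at its start site) and S100P, the last of which lies in a dense bin. S100A11 had 5 DMSO peaks near its annotated start sites, with scores from 61.0 to 135. Of the 15 S100 genes on chromosome 1, 11 had a DMSO peak within 50 kb, through 9 distinct peaks with scores from 52.6 to 166, and 0 had an MC2580 peak, against 47.9% and 27.3% of all protein-coding genes. Chromosome 1 as a whole had 715 DMSO and 222 MC2580 peaks, a ratio of 0.310. Of 8 related protease genes of the granzyme and granule families, PRSS57 had a DMSO peak and CMA1, the chymase gene next to CTSG, had an MC2580 peak (score 52.3) within 3 kb of a start site. This is 12.5% of the 8 genes in each list, against 16.1% and 7.87% of all protein-coding genes.

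**Figure D4:**
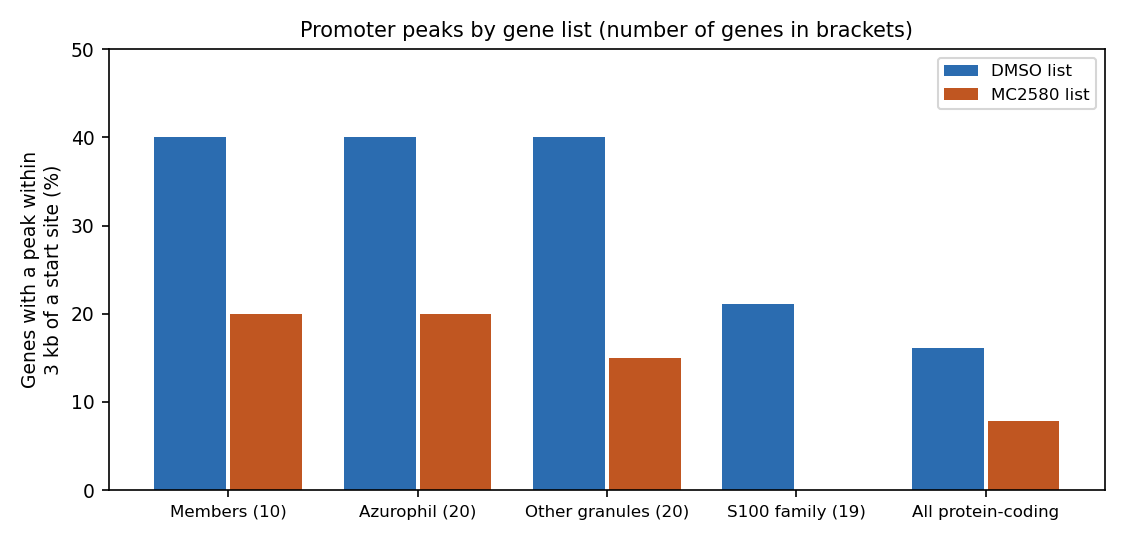
Percentage of genes with a V5-GSE1 peak within 3 kb of an annotated start site, for the 10 members, the azurophil, other granule and S100 lists and all protein-coding genes, with blue bars for the DMSO list and orange bars for the MC2580 list. The 3 lists include the members, and in each of the 5 plotted groups the MC2580 bar is lower than the DMSO bar, at 20% against 40% for the azurophil list and 7.87% against 16.1% for all protein-coding genes.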

How the data were processed

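The files were 2 peak lists, for V5-GSE1 ChIP in DMSO and in MC2580, assigned to their condition by the name of the list. As its methods state, the study mapped reads to hg38 with Bowtie (version 4.8.2 in the submitters' notes), kept reads with a unique match, and the authors set a p-value of 1e-05 in MACS, with peaks called against the respective input and the EV ChIP. How the calls against both backgrounds were combined is not given in the sources used here. The deposited score is −10 times the log10 of the p-value, and it was neither normalized nor corrected for depth, which is unknown.

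Positions were converted to count from 1, and 0 peaks ran past the end of a chromosome of the hg38 sequence used. Gene spans and transcript start sites (TSSs) came from GENCODE version 44. Distances run from the peak edge to the nearest TSS, or from the peak centre to the 5′ end of the gene span. The named genes were the 10 members, genes at their peaks, and genes of wider lists with a peak within 3 kb of a TSS. Members and lists were chosen with earlier results of these data known. Interval functions were checked on 2000 simulated peaks, all placed correctly. Python 3.11.15, pandas 2.3.3, scipy 1.17.1 and pysam 0.24.0 were used.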

Additional observations from a re-analysis of the deposited data

How the results depend on the processing

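No paired analysis was possible because each condition had a single library, so that none could be left out either. Of 44 alternative values, 34 stayed within 1.5 times the reported count, within the Wilson interval of a share or within the range of the member scores, and 10 did not. The 34 do not measure stability, because part of them could not have moved. A median over a subset of the member peaks, as at a score of at least 100 or with 10 kb, cannot leave the range of the member scores. The Wilson intervals of shares over so few peaks are also wide. The changes follow from how each alternative is built. At a score of at least 100, 5 members had a DMSO peak and 1 an MC2580 peak, 5 DMSO peaks and 1 MC2580 peak remained, 2 members had a DMSO peak and 1 an MC2580 peak within 3 kb of a start site, and the single MC2580 peak overlapped a DMSO peak (100%). With 10 kb on each side, 4 members had a DMSO peak and 2 an MC2580 peak. With 100 kb on each side there were 16 DMSO peaks. Shares over all protein-coding genes were not computed at these settings. Other overlap rules, a promoter distance of 1 kb and the 5′ end of the gene span as the only start site kept all their values. Removal of peak-dense bins could not move any value, because no member lay in such a bin. The unknown depth limits every count and score.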

Other observations

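Between 50 and 100 kb from the members, the DMSO list had 8 further peaks and the MC2580 list 2. The highest of these scores, 449 in DMSO, was 83404 bp from the CTSG start site and 25387 bp from that of the granzyme gene GZMB (chr14:24659654-24660947), with no MC2580 counterpart. A peak 51209 bp from an MPO start site and 3349 bp from one of TSPOAP1 was present in both lists, with scores of 184 in DMSO (chr17:58332144-58333807) and 118 in MC2580 (chr17:58332214-58333566). Beyond ELANE, a DMSO peak with a score of 84.3 lay 365 bp from a start site of ARID3A, and 2 DMSO peaks with scores of 52.6 and 68.8 lay 9845 and 29673 bp from a start site of S100A7.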
